A study of Mus musculus with 18 samples.

Results

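The 8 genes described here are the E protein genes Tcf12, Tcf3 and Tcf4, the related basic helix-loop-helix (bHLH) gene Tcf15, and the inhibitor genes Id1, Id2, Id3 and Id4. They were taken by symbol from an RNA-seq table of 20703 genes, all 8 were found in it, and all had counts in each of the 18 libraries. They were selected on measured values, because Tcf12 was among the largest rises after loss of Nsd1 at day 0, so the day 0 differences are given as a description without a test. The study asked how the H3K36 methyltransferase Nsd1 affects gene expression when mouse embryonic stem cells (mESCs) leave pluripotency. The WT cells were E14 mESCs, and the labels do not say whether they carried a tag on Nsd1. The knockout cells were 2 clonal E14 lines, KO-1 and KO-2. In these, CRISPR-Cas9 had removed exon 5 of Nsd1 from cells that already carried a homozygous Nsd1-3×Flag knock-in. Each line was sampled at day 0, and at day 2 and day 4 after LIF and the feeder fibroblasts (MEF) had been withdrawn and the cells were grown as a monolayer on gelatin, with 2 biological replicates per sample point. WT is therefore 2 libraries and KO 4 libraries per day, and the KO libraries come from only 2 clones.

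E proteins are bHLH transcription factors that are made in most tissues and bind DNA at E-boxes, short motifs written CANNTG, as dimers with each other or with a tissue-specific bHLH partner. Id proteins have the helix-loop-helix but no basic region, so they pair with E proteins and keep them off DNA. Id genes are classic targets of BMP signaling through SMAD1 and SMAD5, and in mESCs Id proteins are known for helping to hold cells in the undifferentiated state. Tcf3 here is the gene of E2A (ENSMUSG00000020167) and Tcf4 the gene of E2-2 (ENSMUSG00000053477). They are not Tcf7l1 and Tcf7l2, the HMG-box factors of Wnt signaling that are often called TCF3 and TCF4.

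The genes are spread over the genome: Tcf12 (ENSMUSG00000032228) is on chromosome 9, Tcf3 on 10, Tcf4 on 18, Id2 (ENSMUSG00000020644) on 12, Id3 (ENSMUSG00000007872) on 4 and Id4 (ENSMUSG00000021379) on 13. Tcf15 (ENSMUSG00000068079) and Id1 (ENSMUSG00000042745) are both on chromosome 2, with 11 measured genes of at least 10 normalized counts between them. Windows upstream of RefSeq starts on GRCm38.p6, an older build than the mm39 of the deposited counts, were searched for 5 of 8 genes. These were Tcf12, Tcf3, Id2, Id3 and Id4. Tcf4 was not searched, and no window was available for Id1 and Tcf15. The sequences upstream of a start are shown for Tcf12, which had the largest change, and for Id2 and Id4, whose courses in WT ran in opposite directions. Each is written 5′ to 3′ on the strand of the gene and ends where the first GENCODE M21 exon begins or at the start site, and capitals mark the E-box CANNTG and GGCGCC, the core of a SMAD1/5 element.
Tcf12 (chr9:72111872-72112069, minus strand): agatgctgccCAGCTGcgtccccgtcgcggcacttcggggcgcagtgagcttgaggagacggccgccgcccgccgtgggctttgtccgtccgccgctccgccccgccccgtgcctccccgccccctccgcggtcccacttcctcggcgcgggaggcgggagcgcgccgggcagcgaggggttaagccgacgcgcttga
Id2 (chr12:25096254-25096342, minus strand): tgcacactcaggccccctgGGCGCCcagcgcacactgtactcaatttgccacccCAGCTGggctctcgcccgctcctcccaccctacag
Id4 (chr13:48260866-48261115, plus strand): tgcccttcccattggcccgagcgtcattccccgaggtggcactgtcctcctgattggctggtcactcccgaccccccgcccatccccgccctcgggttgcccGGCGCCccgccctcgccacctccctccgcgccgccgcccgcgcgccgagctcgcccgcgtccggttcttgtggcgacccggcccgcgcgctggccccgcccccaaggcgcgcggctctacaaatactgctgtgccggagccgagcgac

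In the full 250 bases before a start, searched on both strands, an E-box was found at 2 of the 3 starts listed for Tcf12 and at those of Tcf3 and Id2, but not at those of Id3 and Id4. These letters are common, and 66.2% of the 32851 RefSeq windows of that length hold them. GGCGCC, which 9.59% of the windows hold, was found upstream of Id2 and Id4. The window of the first Tcf12 start had a GC content of 76.8%, against a median of 52.4% over all windows. The counts were summed over all exons of a gene and do not tell which of the starts of Tcf12 was used.

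The libraries held 9309874 to 23921193 counts on genes, with a median of 15721347, and the WT libraries of day 2 were the shallowest. Nsd1 itself, whose other exons are still counted in the knockout, averaged 3517, 3059 and 2268 normalized counts in the WT groups of day 0, 2 and 4 and 718, 942 and 818 in those of KO, and its KO libraries were all lower than those of WT. The summed level of 8 stem cell markers, all of them detected, was 70718 to 71247 in WT and 69968 to 75443 in KO at day 0, and by day 4 it was 10187 to 10345 in WT and 21149 to 24060 in KO. The sum of 6 markers of mesoderm and primitive streak at day 4 was 30199 to 30861 in WT and 330 to 867 in KO, where Mesp1 and Msgn1 had at most 3 counts in every library. The sum of 11 fibroblast markers was higher in KO at day 0 (5624 to 6659, against 3797 to 3902 in WT) and lower in KO at day 2 (866 to 1101, against 1347 to 1475) and day 4 (1645 to 3336, against 3860 to 3975), with Lum at 3 counts or fewer in every library of day 0. In bulk RNA, fewer cells that express a gene and less RNA per cell cannot be told apart, which holds for every value below.

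Values are given as normalized counts, recovered from the deposited log2 values and divided by the size factor of the library. Tests were made with limma on the deposited variance stabilized (VST) values. A gene was called where its log2 fold change (log2FC) was beyond 0.58 in either direction with an adjusted p under 0.01. The VST scale compresses differences between weakly expressed genes, so the log2FC of limma-voom, fitted on the recovered counts, is given beside it where it differs in call.

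Tcf12 was higher in KO than in WT at all 3 days, and the ratio of the means was smaller at each later day. At day 0 the WT libraries had 463 and 457 normalized counts, the KO-1 libraries 3222 and 2974 and the KO-2 libraries 2943 and 3071. Tcf12 was chosen by these day 0 values, so the smaller ratio at day 2 than at day 0 is not free of that choice. The KO mean was 6.63-fold the WT mean, the log2FC was 1.86 on the VST scale, and this rise ranked 3rd of the 20703 genes, between Sfmbt2 (1.91) and Nrp2 (1.74). Over all genes, 2.61% were called at day 0 in either direction.

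At day 2, the WT libraries had 911 and 943 normalized counts of Tcf12, KO-1 had 3916 and 4146 and KO-2 had 4623 and 4802. At day 4, WT had 1638 and 1661, KO-1 had 4221 and 4080 and KO-2 had 4197 and 4198. The KO libraries therefore lay above both WT libraries without overlap at each day, and at day 4 they lay between 4080 and 4221. The KO mean was 4.72-fold the WT mean at day 2 (log2FC 1.72, SE 0.06, adjusted p = 8.77e-14, limma, with p-values adjusted by Benjamini and Hochberg) and 2.53-fold at day 4 (1.09, SE 0.06, adjusted p = 1.98e-11, limma). Both were called, and they remained called in each of the 17 alternatives of day 2 and 16 of day 4 on the VST scale, with log2FCs of 1.62 to 1.82 and of 1.08 to 1.12.

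The difference between the KO effect at day 4 and at day 2 was itself tested, and for Tcf12 it was −0.63 (SE 0.09, adjusted p = 2.10e-05, limma), which passed the call. Tcf12 was the only member of the 8 genes called in this test, against 6.41% of all genes, and it was no longer called after quantile normalization (−0.52) or with KO-1 alone (−0.54). In WT the mean was 927 at day 2 and 1650 at day 4, a 1.78-fold difference with a log2FC of 0.58 that fell just under the fold threshold (adjusted p = 2.46e-06, limma) and was called by limma-voom (0.83). In KO it was 4372 at day 2 and 4174 at day 4, and the difference of −0.05 (SE 0.05, adjusted p = 0.526, limma) did not pass. In order of level, KO day 2 and KO day 4 overlapped, and below them KO day 0, WT day 4, WT day 2 and WT day 0 were each apart from the next.

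**Figure D1:**
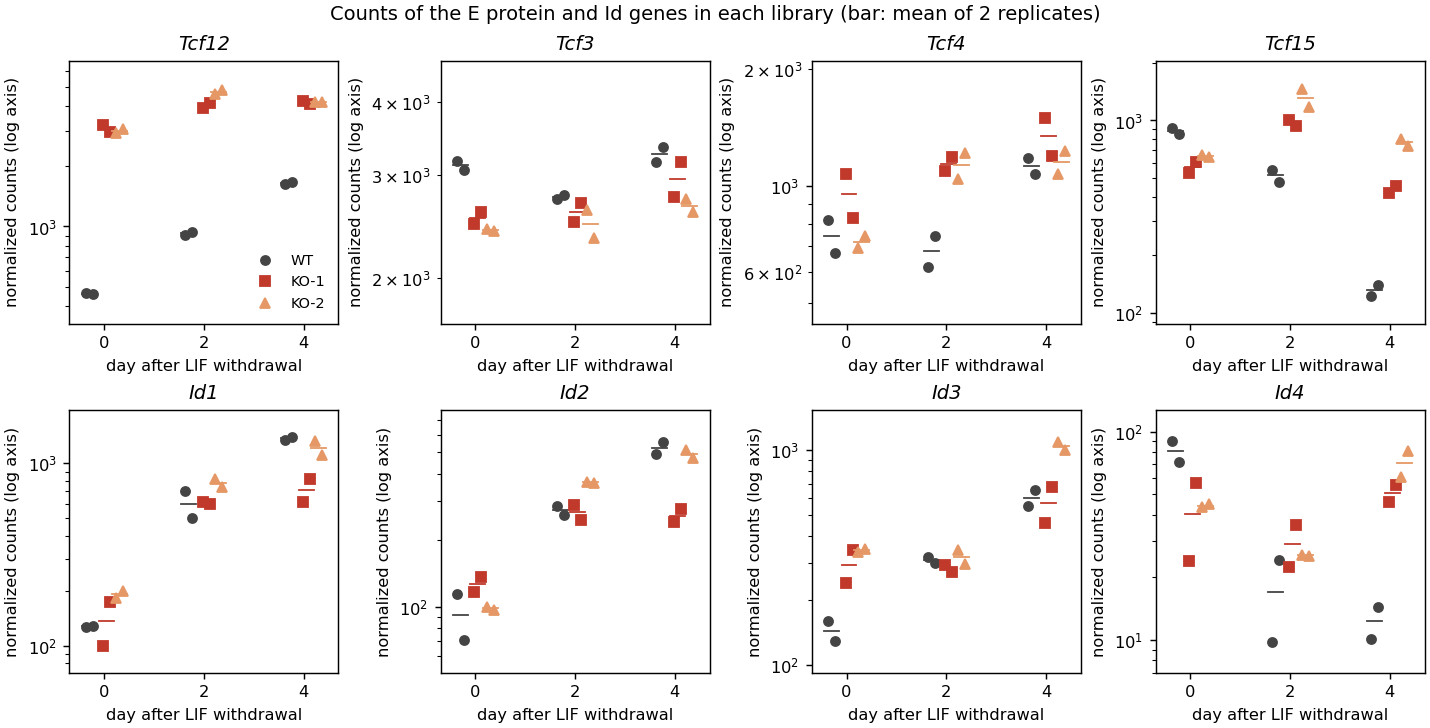
Normalized counts (log axis) of the 8 genes in each of the 18 libraries against the day after LIF withdrawal, with WT, KO-1 and KO-2 as separate symbols and a bar at the mean of the 2 replicates of a line. Tcf12 of all KO libraries lies above WT at each day, and Tcf15 falls to a mean of 131 in WT at day 4 but is at 605 in KO.

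Tcf3, the gene of E2A and the most abundant E protein transcript of WT cells per length, was slightly lower in KO. WT had 3172 and 3067 normalized counts at day 0, 2734 and 2780 at day 2, and 3165 and 3358 at day 4, and KO had 2405 to 2596, 2343 to 2693, and 2594 to 3163. Each KO library was below both WT libraries of its day, by 1.26-fold at day 0, 1.09-fold at day 2 and 1.16-fold at day 4 in the means. The log2FC of −0.10 at day 2 (SE 0.07, adjusted p = 0.227, limma) and of −0.18 at day 4 (SE 0.07, adjusted p = 0.0343, limma) did not pass. Groups without overlap are frequent here: at day 2 and day 4, 57.5% and 49.8% of all genes had KO and WT ranges that did not meet, as did 4 and 5 of the 8 genes. At day 0 it was 47.4% of all genes and 5 of the 8.

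Tcf4, the gene of E2-2, had its largest ratio of KO to WT at day 2. Its WT libraries had 618 and 744 normalized counts at day 2, and the KO libraries 1096, 1185, 1045 and 1215, all above WT. The 1.67-fold difference had a log2FC of 0.47 (SE 0.10, adjusted p = 5.05e-04, limma), under the fold threshold, and of 0.74 with limma-voom (adjusted p = 0.00127), which called it. At day 0 the WT libraries (816 and 673) overlapped with those of KO (694 to 1076), and at day 4 the WT libraries (1183 and 1071) overlapped with KO (1074 to 1501), where the log2FC was 0.10 (SE 0.10, adjusted p = 0.476, limma). The difference of the KO effect between day 4 and day 2 was −0.37 (SE 0.14, adjusted p = 0.0480, limma) and −0.60 with limma-voom (adjusted p = 0.0421), and neither was called. Between day 2 and day 4, Tcf4 went from a mean of 681 to 1127 in WT (log2FC 0.46, adjusted p = 0.00218, limma, not called, and 0.72 with limma-voom, called).

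Divided by transcript length, Tcf12 was a small part of the E protein transcripts in WT at day 0 and a larger part in KO. With the median length of the protein-coding transcripts, which is 4308 bases for Tcf12, 2840.5 for Tcf3 and 2348.5 for Tcf4, Tcf12 made up 7.02% ± 0.264 of the summed counts per kb in WT at day 0 (SD, n = 2) and 36.6% ± 1.22 in KO (SD, n = 4). Its share was 14.6% ± 0.180 in WT and 42.4% ± 2.71 in KO at day 2, and 19.0% ± 0.0162 and 39.0% ± 1.89 at day 4. The share of Tcf3 was 72.2%, 65.8% and 57.1% in WT and 45.1%, 37.4% and 39.7% in KO in the order of the days, and the ranges of KO and WT did not overlap. The share depends on which transcripts the cells make, since the summed exons of Tcf12 span 15529 bases and those of Tcf4 27382. With those lengths the share of Tcf12 was 3.58%, 7.78% and 11.1% in WT and 23.4%, 29.6% and 26.7% in KO, still without overlap between KO and WT on a day. These shares follow from the Tcf12 difference described above and were not tested.

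**Figure D2:**
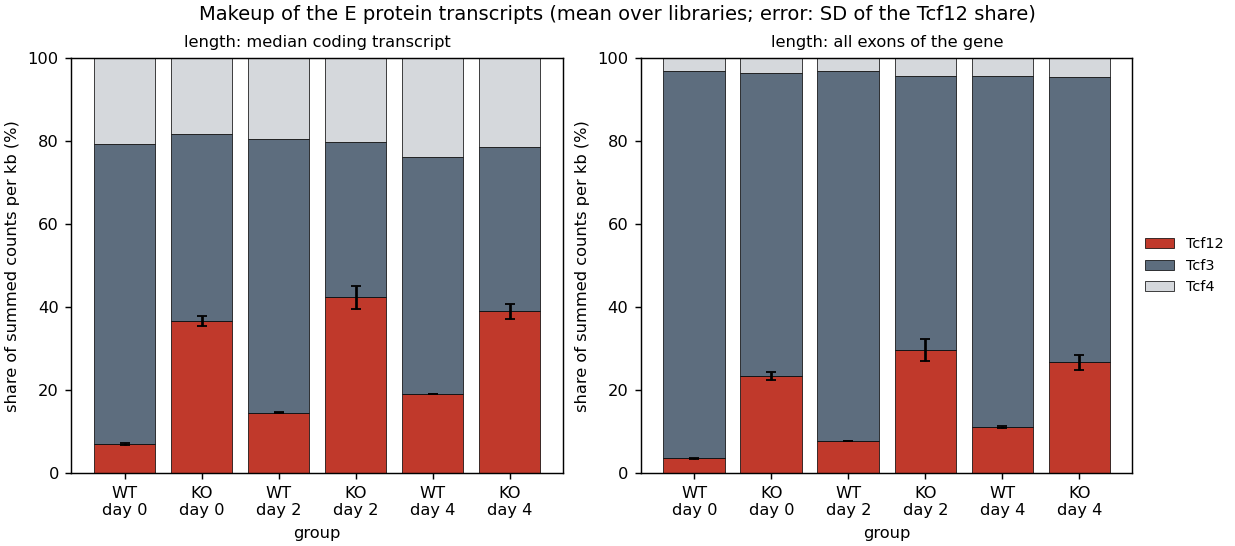
Stacked bars of the mean share of Tcf12, Tcf3 and Tcf4 in the summed counts per kb of the 3 genes (%), for WT (n = 2) and KO (n = 4) at each day, with the SD of the Tcf12 share as error bar. The left panel divides by the median protein-coding transcript and the right panel by all exons, and in both the Tcf12 share is higher in KO than in WT at each day.

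Tcf15 codes for paraxis, a bHLH factor of the early mesoderm and somites that binds DNA with E proteins and in mESCs is known as a factor of cells primed to differentiate. It was lower in KO at day 0 and higher in KO at day 2 and day 4. At day 0 the WT libraries had 916 and 855 normalized counts, and the KO libraries 536, 607, 660 and 644, all below WT. At day 2 WT had 556 and 481, KO-1 had 1002 and 936, and KO-2 had 1454 and 1176. At day 4 WT had 123 and 139, KO-1 had 422 and 454, and KO-2 had 804 and 741. All KO libraries of day 2 and day 4 were above WT, and at both days those of KO-2 were above those of KO-1.

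The difference in Tcf15 was 2.20-fold at day 2 (log2FC 0.68, SE 0.12, adjusted p = 1.19e-04, limma) and 4.63-fold at day 4 (0.92, SE 0.12, adjusted p = 3.34e-06, limma), and both were called. With KO-1 alone against WT the log2FC at day 2 was 0.54, under the threshold. Tcf12 and Tcf15 were thus the 2 of 8 genes called at day 2, where 4.01% of all genes were called higher and 2.37% lower in KO, and again the 2 of 8 called at day 4, where 3.67% of all genes were called higher and 3.91% lower. By limma-voom the count was 3 of 8 at each day, all higher in KO, with Tcf4 added at day 2 and Id4 at day 4, against 10.3% of all genes higher and 13.6% lower at day 2 and 10.9% and 13.0% at day 4. Tcf12 was chosen for its rise in the same lines at day 0, so its part in these counts is not independent of that choice. Without Tcf12, limma called only Tcf15 at each of these days. On the VST scale 831 genes were called higher and 490 lower at day 2, and after median centring 1007 and 355. The limma-voom fit put the median log2FC of all genes at −0.142 at day 2, against −0.016 on the VST scale, and at −0.170 for day 4 over day 2 in WT, so its values for these comparisons stand against that shift.

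Over time, the mean of Tcf15 peaked at day 0 in WT and at day 2 in KO. In WT it went from 885 at day 0 to 519 at day 2 (log2FC −0.45, adjusted p = 0.0146, limma, not called) and fell to 131 at day 4 (−0.81, SE 0.14, adjusted p = 8.72e-05, limma, called). In KO it went from 612 to 1142 at day 2 (0.55, adjusted p = 1.70e-04, limma, under the fold threshold, and 0.88 with limma-voom, called) and fell to 605 at day 4 (−0.58, SE 0.10, adjusted p = 1.72e-04, limma). The last call lay at the fold threshold and was lost without either KO-1 library of day 4 (−0.50 and −0.51) or either KO-2 library of day 2 (−0.50 and −0.57). The KO effect at day 4 exceeded that at day 2 by 0.23 (SE 0.17, adjusted p = 0.346, limma), which did not pass. The stem cell markers were higher and the mesoderm markers lower in KO at day 4, in the amounts given above, and their part in the Tcf15 values was not tested.

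**Figure D3:**
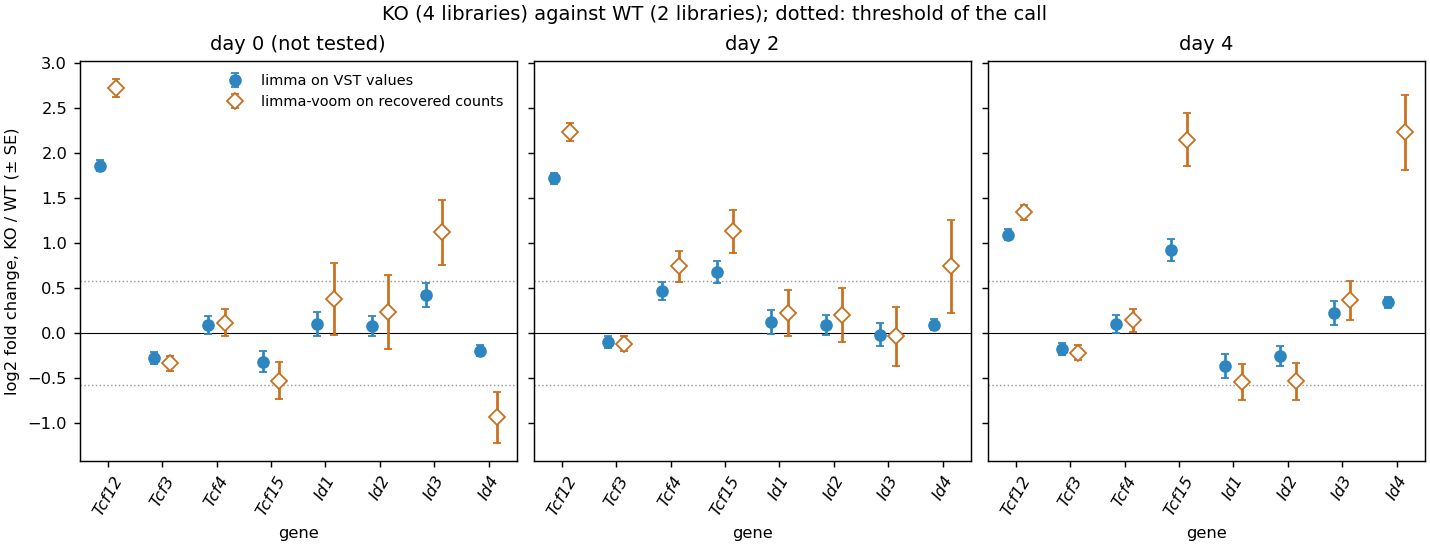
Log2FC of KO (n = 4) over WT (n = 2) with its SE for the 8 genes at day 0, 2 and 4, by limma on VST values (circles) and by limma-voom on recovered counts (diamonds), with dotted lines at the fold threshold of 0.58. Day 0 is a description without a test, and on the VST scale only Tcf12 and Tcf15 pass the threshold at day 2 and day 4.

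Id1 rose as the cells differentiated, in WT and in KO. In WT, Id1 stood at 127 and 129 normalized counts at day 0, at 701 and 499 at day 2 and at 1337 and 1394 at the last day. It rose 4.67-fold from day 0 to day 2 (log2FC 0.93, SE 0.16, adjusted p = 7.15e-05, limma) and 2.28-fold from day 2 to day 4 (0.76, SE 0.16, adjusted p = 4.66e-04, limma), and both were called. In a fit of the 4 libraries of each comparison alone both calls were lost, with the same log2FCs and adjusted p = 0.0118 and 0.0190 (limma), and the second call was also lost without the second WT replicate of day 2 (0.63, adjusted p = 0.0144, limma). In KO, Id1 rose 4.22-fold from day 0 to day 2 (0.95, SE 0.11, adjusted p = 8.11e-07, limma, called), and from day 2 to day 4 its mean went from 693 to 964 (0.27, SE 0.11, adjusted p = 0.0821, limma). The difference of the KO effect between day 4 and day 2 was −0.49 (SE 0.19, adjusted p = 0.0588, limma), which did not pass.

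Leaving out Tcf12, whose day 0 values chose it, Id1 was the 1 of 7 genes called from day 0 to day 2 in WT, where 6.68% of all genes were called, and the 1 of 7 in KO, where 3.20% were. By limma-voom it was joined by Id2 and Id4 in WT, where 19.5% of all genes were called, and by Tcf15 and Id2 in KO, where 16.3% were. From day 2 to day 4, 2 of 8 genes were called in WT (Id1 and Tcf15, against 8.76% of all genes) and 2 of 8 in KO (Id3 and Tcf15, against 1.49%). By limma-voom these counts were 4 of 8 in WT, against 24.1% of all genes, and 3 of 8 in KO, against 10.3%.

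At day 4, Id1 in the KO libraries (611 and 818 in KO-1, 1317 and 1107 in KO-2) was below both WT libraries, and the log2FC of −0.37 (SE 0.13, adjusted p = 0.0356, limma) did not pass. With KO-1 alone it was −0.62 and was called, and KO-2 lay just under WT. At day 0 and day 2 the KO range held or overlapped the WT libraries, with KO means of 164 and 693 against WT means of 128 and 600.

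Id2 followed Id1 at lower counts. WT had 114 and 70.5 normalized counts at day 0, 287 and 259 at day 2 and 489 and 554 at day 4, and KO had 97.2 to 136, 248 to 366 and 241 to 512. The groups overlapped at each day. Compared with day 0, Id2 at day 2 was 2.96-fold higher in WT (log2FC 0.52, adjusted p = 0.00201, limma) and 2.82-fold higher in KO (0.53, adjusted p = 6.45e-05, limma), both under the fold threshold on the VST scale and called by limma-voom (1.52 and 1.49). At day 4 the KO mean was 375 against 522 in WT (−0.26, SE 0.11, adjusted p = 0.0638, limma), which did not pass. Over the 18 libraries, Pearson's r of Id1 was 0.97 with Id2 and 0.76 with Id3, a description of libraries that share days and lines.

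Id3 was the Id gene with the largest ratio of KO to WT at day 0, which is a description. The WT libraries had 160 and 129 normalized counts at day 0, and the KO libraries 241, 345, 335 and 349, so that the KO mean was 2.19-fold the WT mean. Between day 0 and day 2, Id3 went from 145 to 309 in WT (log2FC 0.41, adjusted p = 0.0365, limma) and from 318 to 300 in KO (−0.03, adjusted p = 0.854, limma), and neither was called. At day 2, WT had 319 and 298 and KO 270 to 342 (−0.02, SE 0.13, adjusted p = 0.926, limma). Between day 2 and day 4, Id3 rose 2.70-fold in KO (0.72, SE 0.11, adjusted p = 3.71e-05, limma, called) and was 1.95-fold higher in WT (0.48, adjusted p = 0.0149, limma, not called). With KO-1 alone the difference was 0.48 and not called. At day 4 the KO libraries (461 and 674 in KO-1, 1100 and 1004 in KO-2) lay on both sides of WT (551 and 653), and the difference of 0.22 (SE 0.13, adjusted p = 0.211, limma) did not pass. Fibroblasts also express Id genes, and the fibroblast marker sum was higher in KO at day 0 together with Id3, in the amounts given above, but its part in the Id3 values was not tested.

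Id4 was the weakest of the 8 genes, with 6 to 108 counts per library, and ran against Id1 and Id2 in WT. WT had 90.6 and 71.9 normalized counts at day 0, 9.78 and 24.3 at day 2 and 10.1 and 14.5 at day 4. Its log2FC from day 0 to day 2 in WT was −0.39 on the VST scale (SE 0.07, adjusted p = 9.69e-05, limma), under the fold threshold, and −2.35 by limma-voom (adjusted p = 0.00134), called. KO had 24.1, 56.5, 43.5 and 44.9 at day 0, all below WT, 22.4 to 35.6 at day 2, and 46.2, 55.8, 60.9 and 81.2 at day 4, all above WT. At day 4 the KO mean was 4.96-fold the WT mean, with a log2FC of 0.34 on the VST scale (SE 0.06, adjusted p = 8.10e-05, limma), under the fold threshold, and of 2.23 by limma-voom (SE 0.42, adjusted p = 2.06e-04), called. From day 2 to day 4 in KO it was 2.24-fold higher, and limma-voom called this (1.15, adjusted p = 0.00236) and limma on the VST values did not (0.20, adjusted p = 0.00328).

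Per kb of the median coding transcript, the summed Id level at the 3 days in order was 330 ± 43.3, 1034 ± 160 and 2190 ± 132 in WT (SD, n = 2) and 505 ± 83.0, 1153 ± 164 and 1865 ± 635 in KO (SD, n = 4), a description without a test. The summed E protein level was 1522 ± 69.9, 1476 ± 54.7 and 2011 ± 18.1 in WT and 1936 ± 107, 2391 ± 93.4 and 2491 ± 102 in KO. The ratio of summed E protein to summed Id transcripts went from 4.64 ± 0.398 at day 0 to 0.920 ± 0.0470 at day 4 in WT, and from 3.95 ± 0.987 to 1.49 ± 0.602 in KO. The ranges of the ratio overlapped between KO and WT at day 0 and day 4, and at day 2 KO (1.81 to 2.44) lay above WT (1.25 to 1.64). The clones differed in this. At day 4 KO-1 (1.67 to 2.26) lay above WT (0.887 to 0.953), and only KO-2 (0.943 to 1.08) overlapped with it. At day 0 KO-2 (3.40 to 3.48) lay below WT (4.36 to 4.92), and KO-1 (3.50 to 5.43) spanned it. With the summed exons as length the ratio at day 2 was 0.932 to 1.25 in KO and 0.840 to 1.09 in WT, which overlapped. Within the Id sum, Id1 was the largest part in WT at each day (37.6%, 55.1% and 59.6%), though at day 0 its range overlapped with that of Id3 (34.3%), and in KO at day 0 Id3 was (49.2%, against 30.6% for Id1).

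The 2 clones differed for part of the genes at day 4. Id1, Id2, Id3 and Tcf15 were lower in both KO-1 libraries than in both KO-2 libraries. Id2 had 241 and 276 normalized counts in KO-1 and 512 and 469 in KO-2 at day 4. The log2 difference of KO-1 from KO-2 was −0.49 for Id1 (adjusted p = 0.00182), −0.43 for Id2 (adjusted p = 2.51e-04), −0.55 for Id3 (adjusted p = 3.78e-04) and −0.45 for Tcf15 (adjusted p = 2.96e-04) in the limma fit of 9 groups. These 4 p-values passed but the differences were under the fold threshold, so 0 of 8 genes were called on the VST scale, where 0.251% of all genes were, and 4 of 8 by limma-voom (−0.75, −0.91, −0.87 and −0.81 in that order), where 2.23% of all genes were. In a limma fit of the 4 KO libraries of day 4 alone, 0 of the 20703 genes were called (4471 had an unadjusted p under 0.05), and the adjusted p was 0.161 for Id1, 0.151 for Id2, 0.154 for Id3 and 0.151 for Tcf15. In the fit of 9 groups without the second KO-1 library or the second KO-2 library of day 4, Id1 and Id3 were called on the VST scale. Tcf12 had means of 4150 in KO-1 and 4198 in KO-2 at day 4, with a difference of −0.01 (SE 0.05, adjusted p = 0.932, limma).

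The fibroblast marker sum at day 4 was also lower in KO-1 (1645 to 1952) than in KO-2 (3149 to 3336). So were the sums of 5 endoderm markers (71.0 to 98.1, against 131 to 178) and of 5 trophoblast markers. The sum of 5 neuroectoderm markers ran the other way, with 3242 to 3353 in KO-1 and 2199 to 2292 in KO-2. The mesoderm and primitive streak sum was also higher in both KO-1 libraries (834 to 867) than in both KO-2 libraries. The stem cell marker sums of the clones overlapped. The part of these marker sums in the clone differences was not tested. At day 0 and day 2, 0 of 8 genes were called between the clones by limma, with no adjusted p of the 8 under 0.01, and 0 by limma-voom, while 0.0290% and 0.0435% of all genes were called by limma. The smallest adjusted p of the 8 at day 2 was that of Tcf15 (−0.30, SE 0.07, adjusted p = 0.0321, limma).

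**Figure D4:**
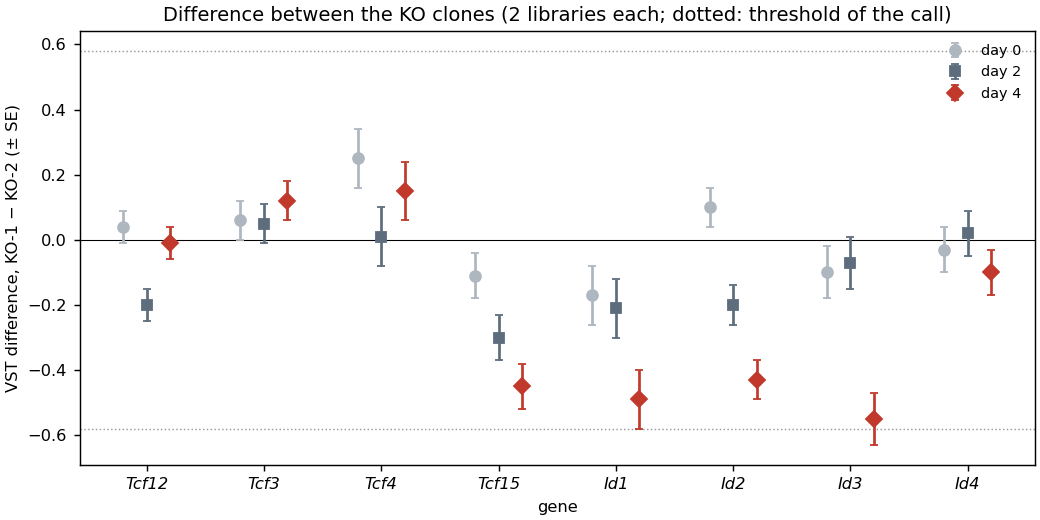
Difference of the VST values (log2) between KO-1 and KO-2, 2 libraries each, with its SE for the 8 genes at day 0, 2 and 4, with dotted lines at ±0.58. At day 4 Tcf15, Id1, Id2 and Id3 lie between −0.43 and −0.55 and Tcf12 at −0.01.

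Around these genes in the pathway, the partners with which E proteins form tissue-specific dimers were mostly weak or lacking: 30 of 40 listed genes were in the table. At day 2, 0 of the 30 were called by limma, with a median log2FC of −0.11 beside −0.02 for all genes. At day 4, 4 were called lower and 0 higher, with a median of 0.07 beside 0.00 for all genes, and the shares of all genes called were those given with Tcf15 (at day 2 4.01% higher and 2.37% lower, at day 4 3.67% and 3.91%). Limma-voom called 0 of the 30 higher and 6 lower at day 2, beside 10.3% and 13.6% of all genes. At day 4 it called 8 higher and 9 lower, beside 10.9% and 13.0%. Its medians for the 30 were −1.47 and 1.32, beside −0.14 and 0.00 for all genes. These medians include genes near 0 counts. At day 2, Atoh1 had means of 4.87 normalized counts in WT and 1.37 in KO (log2FC −2.11 by limma-voom). At day 4 its means were 0 and 1.26 (1.39). Atoh1 was named here after its values were seen. The largest of the 4 falls called by limma at day 4 was that of Msgn1, a regulator of presomitic mesoderm, which had 1009 and 1854 counts in WT but 0 in all libraries of KO, which is at least 431-fold lower if 3 counts per library are taken as the floor. The others were Mesp1, Mesp2 and Hand1, mesodermal factors named here after their values were seen.

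Of 14 cofactors of E proteins and genes of Id stability, all in the table, 1 was called higher and 1 lower at day 2, and 0 higher and 1 lower at day 4, against the same shares of all genes. By limma-voom, which called 10.3% of all genes higher and 13.6% lower at day 2 and 10.9% and 13.0% at day 4, it was 1 higher and 3 lower at day 2 and 2 higher and 1 lower at day 4. Kat2b, an acetyltransferase, rose from 397 ± 0.354 to 867 ± 87.6 normalized counts at day 2 (log2FC 0.62, adjusted p = 1.80e-06, limma). Lmo4, a LIM-only adaptor, fell from 842 to 370 at day 2 (−0.65, adjusted p = 2.66e-07, limma), and Lmo1, of the same family, from 198 to 16.5 at day 4 (−0.77, adjusted p = 5.69e-11, limma). A further list held Hes and Hey genes with Bhlhe40 and Bhlhe41, which are bHLH factors outside the E protein group. Of its 10 measured genes, 1 was called higher and 1 lower at day 2, beside 4.01% and 2.37% of all genes. At day 4, 1 was higher and 2 lower, beside 3.67% and 3.91%. Limma-voom called 2 higher and 3 lower at each day, beside its shares of all genes given above. Hes6 was the higher gene at both days (241 to 631 and 249 to 701, log2FCs 0.66 and 0.71), Bhlhe41 the lower gene at day 2 (326 to 15.7, −1.07), and Bhlhe40 had the larger fall at day 4 (1353 to 127, −1.69), beside Hes1, which was named after its values were seen. Hes3, also named after its values were seen, had a mean of 0 in WT and of 35.2 at day 2 and 41.9 at day 4 in KO, and was called higher by limma-voom alone.

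Upstream of the Id genes, 13 of 13 BMP ligands, receptors and SMADs were measured. Of these, 1 was called higher and 0 lower at day 2, and 0 higher and 3 lower at day 4. Their medians were 0.06 and −0.19, beside −0.02 and 0.00 for all genes. Of all genes, limma called 4.01% higher and 2.37% lower at day 2, and 3.67% and 3.91% at day 4. Limma-voom called 2 of the 13 higher and 1 lower at day 2, and 1 higher and 5 lower at day 4. Its shares of all genes were 10.3% higher and 13.6% lower at day 2, and 10.9% and 13.0% at day 4. The type II receptor gene Acvr2b rose from 641 ± 123 to 1348 ± 185 at day 2 (log2FC 0.69, adjusted p = 9.28e-04, limma). The ligand gene Bmp2 fell from 781 ± 36.7 to 6.33 ± 2.21 at day 4 (−1.85, adjusted p = 1.02e-15, limma), and Bmp4 and Smad1, named after their values were seen, were the other 2 called lower. Of 6 other BMP targets and feedback genes, 0 were called at day 2 by either fit. At day 4, 1 was higher and 3 lower by limma, and 1 and 4 by limma-voom, beside the same shares of all genes. Smad7, an inhibitory SMAD, rose from 519 to 1647 (1.07, adjusted p = 6.39e-10, limma), Nog, a secreted BMP antagonist, fell from 442 to 15.5 (−1.28, adjusted p = 2.84e-12, limma), and Msx1 and Msx2, named after their values were seen, were also called lower. No Id gene was called lower in KO at day 4 when both clones were used. Their log2FCs were −0.37 for Id1, −0.26 for Id2, 0.22 for Id3 and 0.34 for Id4. With KO-1 alone, Id1 was called lower (−0.62). Whether the Id values follow those of the BMP genes was not tested.

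Among the 4 HMG-box genes are Tcf7l1 and Tcf7l2, which are often called TCF3 and TCF4. At day 2, 0 of the 4 were called higher and 2 lower by limma, beside 4.01% and 2.37% of all genes. At day 4, 1 was called higher and 2 lower, beside 3.67% and 3.91%. Tcf7 fell from 2493 to 1142 normalized counts at day 2 (log2FC −0.84) and from 3192 to 1369 at day 4 (−0.96), and Lef1 fell from 428 to 88.6 (−0.83) and from 1050 to 386 (−0.83), with adjusted p from 5.63e-09 to 6.26e-08 by limma. Tcf7l1 had 1148 in WT and 1511 in KO at day 2 (0.28, not called) and rose from 773 to 1681 at day 4 (0.76, adjusted p = 3.91e-08, limma). Tcf7l2 had 164 in WT and 366 in KO at day 2 (0.45 on the VST scale, not called, and 1.13 by limma-voom, called), and 289 and 382 at day 4 (0.18, not called).

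Ranked by Pearson's r of VST values over the 18 libraries among genes whose group means spanned more than 0.58, the pattern of Tcf12 was most like those of Phlpp1 (r = 0.982), Prkce (0.977), Spg20 (0.976), Lpgat1 (0.973) and Zfyve9 (0.971), of 5536 genes ranked. Eef1akmt1 (0.977) and Id2 (0.974) were most like Id1, and Id1 (0.974) most like Id2. The first genes for the others were Ergic1 for Tcf3 (0.914), Gtf3c1 for Tcf4 (0.954), Slc5a11 for Tcf15 (0.949), Arl2bp for Id3 (0.959) and Ddc for Id4 (0.810). The libraries behind each r share their days, lines and depth, so these are descriptions of likeness only.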

How the data were processed

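RNA-seq was analysed from 18 libraries, 2 per line (WT, KO-1, KO-2) and day (0, 2, 4), matched to the columns of a single table by their labels. The authors trimmed reads (Trim Galore 0.6.7), aligned them to mm39 (STAR 2.7.11a), counted primary, nonduplicated fragments on exons (featureCounts 2.0.6), removed weakly expressed genes and deposited VST values of DESeq2 1.42.0, which are on a log2 scale. The transformation was inverted, which gave whole counts (within 0.05) for 100% of values, with the authors' size factors. Main tests used limma 3.58.1 in R 4.3.3 with a trended prior on the VST values and 6 groups of genotype and day, clones pooled as KO, or 9 groups of line and day for clones, with Benjamini-Hochberg adjustment over 20703 genes. DESeq2 and edgeR were not run on log2 values, and limma-voom on the recovered counts was the alternative. The smallest p of an exact permutation of 4 against 2 libraries is 0.0667, so no single-gene permutation test was made.

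The members and gene lists were chosen with earlier results of these data known. The text names all members, from each list the called gene with the largest rise and the largest fall at day 2 and at day 4 (all of the HMG-box genes), and the most like genes by r. Lengths came from GENCODE M21 and upstream sequences from RefSeq, both on GRCm38. Alternatives were each day alone, each clone alone, clones averaged, a replicate block, quantile normalization, median centring, dropping genes whose mean lay below the 25th percentile, no trend, both limma-voom scalings, an adjusted p under 0.05 without a fold threshold, and each library left out. Dividing by summed exon length and a replicate block in the day 2 libraries were added after seeing the data. Steps were tested on simulated data.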

Additional observations from a re-analysis of the deposited data

Results flagged for a closer look

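For Tcf12, the difference between the KO effect at day 4 and at day 2 was called by limma on the VST values (−0.63). In the KO libraries of day 4, the lowest Tcf12 value, in the second KO-1 library (4080 normalized counts, against 4197 to 4221 in the others), stood apart from the rest by 0.835 of the whole range, over Dixon's critical value for 4 libraries. The range is narrow, with an SD of 63.5 normalized counts. In the KO libraries of day 0, the lowest Id3 value, in the first KO-1 library (241, against 335 to 349), stood apart by 0.887 of the range. This library also had the lowest Id1 and Id4 of its group (99.6 and 24.1). Chance flags about 1 in 20 groups by this measure, and 24 groups were looked at.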

How the results depend on the processing

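With the replicate number as a block, 88 of 88 member values kept their call and direction, and the counts of called members were 2 and 2 at day 2 and day 4, as without it. The replicate numbers are balanced over the groups, so this block could not change a log2FC or its direction, only the SE and the p-value. Replicate differences of groups correlated between −0.612 and 0.636 over 36 pairs of groups and 10352 genes, with 13 pairs over 0.1. The 3 pairs of day 2 groups were all over 0.1 (0.475, 0.366 and 0.432), those of day 0 or of day 4 were not all over it, and the labels tie no number to a batch, so the number was not taken to pair the samples. A block in the day 2 libraries only, added after seeing the data, also gave 2 of 8 at day 2 and 0 of 8 between the clones, where Tcf15 had an adjusted p of 0.00802 (limma). Of 1174 tested member values under an alternative, 1083 kept call and sign, 55 gained and 14 lost the call, and 22 changed sign. Of 178 values given as description, 2 changed sign, both for KO against WT at day 0 (Tcf4 −0.03 with KO-2 alone, Id2 −0.01 without WT day 0 replicate 2). Of the 178, 18 moved from the main value by over 1 SD of the VST values of the KO libraries. The alternatives include the limma-voom fits, whose log2FCs are not on the VST scale.

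At day 2, KO against WT gave 1 of 8 with KO-1 alone (Tcf12, beside 5.50% of all genes), and at day 4 it gave 5 of 8 at an adjusted p under 0.05 without a fold threshold (37.2% of all genes). From day 0 to day 2 in WT, 0 of 7 were called with these libraries alone, 3 by limma-voom, 2 by limma-voom with TMM and 5 at the looser threshold, against 5.80%, 19.5%, 19.5% and 40.6% of all genes. From day 2 to day 4 in WT these counts were 1, 4, 4 and 7 of 8, against 7.49%, 24.1%, 24.2% and 42.3%. From day 0 to day 2 in KO, 3 of 7 were called with KO-2 alone (3.51%) and by both limma-voom fits (16.3% each), and 4 at the looser threshold (35.7%). From day 2 to day 4 in KO, 1 of 8 was called with these libraries alone, with KO-1 alone, with KO-2 alone and after quantile normalization, against 1.41%, 1.84%, 1.87% and 1.45%. For the difference between the days, 0 of 8 were called after quantile normalization (6.40%) and 3 of 8 at the looser threshold (29.1%). Between the clones at day 4, limma-voom called 4 of 8 (2.23%). The cause of these shifts was not tested, apart from the looser threshold, which calls more by construction.

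Leaving out each library in turn gave 1 to 2 of 7 from day 0 to day 2 in KO (2 without either KO-1 library of day 2). From day 2 to day 4 in KO it gave 1 to 2 of 8. It was 1 without either KO-2 library of day 2 or either KO-1 library of day 4. For the difference between the days it was 2 of 8 without KO-2 day 4 replicate 1. With all libraries, 3.20%, 1.49% and 6.41% of all genes were called in these comparisons, in that order. Within WT and between the clones, leaving out a library leaves 1 in its group, so no count is given there.

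The signs of the following tested values turned, none of which was called. KO against WT at day 2 was −0.01 for Id2 with KO-1 alone, and for Id3 0.02 with KO-2 alone, 0.04 after median centring and 0.04 by limma-voom with TMM. At day 4, Id3 was −0.05 with KO-1 alone. From day 2 to day 4, Id4 in WT was 0.02 after quantile normalization, and in KO-1 alone Tcf12 was 0.04 and Id2 −0.02. With a library left out, KO against WT at day 2 ranged from −0.01 to 0.26 for Id1 and from −0.05 to 0.00 for Id3. In WT, Tcf4 ranged from −0.16 to 0.01 from day 0 to day 2 and Id4 from −0.11 to 0.03 from day 2 to day 4. KO-1 against KO-2 ranged from −0.01 to 0.08 for Tcf12, from −0.21 to 0.01 for Id3 and from −0.14 to 0.07 for Id4 at day 0, from −0.01 to 0.12 for Tcf3, from −0.06 to 0.08 for Tcf4 and from −0.02 to 0.07 for Id4 at day 2, and from −0.04 to 0.01 for Tcf12 at day 4.

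The Tcf12 share of the E protein transcripts in WT at day 0, 2 and 4 was 3.58%, 7.78% and 11.1% per kb of summed exons and 10.6%, 21.2% and 27.3% not per length, and in KO 23.4%, 29.6% and 26.7%, and 48.0%, 54.3% and 50.7%. The ratio of E protein to Id transcripts per kb of summed exons was 3.32, 0.967 and 0.552 in WT and 2.31, 1.07 and 0.770 in KO. Both follow from the lengths used. Arl2bp, most like Id3 by Pearson's r, had a Spearman's rho of 0.851. Low counts limit Id4 most, with 6 to 108 counts per library.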
